A study of Rattus norvegicus with 12 samples.

Results

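Nuclei of the descending thin limb (DTL) of the loop of Henle were examined in single-nucleus RNA sequencing of rat kidney. The members were all nuclei that the authors' deposited annotation named DTL at its finer level. The neighbouring cluster that the authors named DTL(Shroom3+) was not included. This gave 1193 DTL nuclei among 217132 nuclei from 12 rats, or 0.549%, and DTL was the 19th of 25 clusters by size.

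The rats were males of the ZSF1 line (ZSF1-LeprfaLeprcp/Crl), whose obese form develops diabetes and kidney disease and whose lean form served as the control. Kidneys of 3 rats per group were sequenced, while the whole study comprised 6 lean rats and 10 per obese group. From an age of 13 to 14 weeks, obese rats received for 12 weeks either vehicle (called untreated obese here), the activator of soluble guanylate cyclase BAY 1101042 (sGCact, runcaciguat) at 3 mg/kg 2 times a day, or the stimulator BAY 1165747 (sGCstim) at 3 mg/kg 1 time a day. The obese rats were analysed at an age of 25 to 26 weeks. Lean rats received neither drug nor vehicle, so obesity and dosing with vehicle cannot be told apart in the comparison with lean rats. The treated groups differed in compound and in the number of doses per day, which cannot be told apart either. Nuclei came from a small piece of frozen kidney per rat, and which layers of the kidney each piece held is not given in the sources used here.

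The descending thin limb is the flat epithelium that carries tubular fluid from the end of the proximal tubule down into the medulla. Its cells hold the water channel Aqp1 and let water leave the tubule, which concentrates the fluid. The fluid then turns into the ascending thin limb (ATL) or the thick ascending limb (TAL). The TAL reabsorbs salt without water, and the limbs together build up the osmotic gradient of the medulla. The drugs raise cyclic GMP by way of soluble guanylate cyclase, an enzyme best known from vascular and stromal cells of the kidney. The level of each gene was not used here, so Aqp1 could not be checked and the name DTL rests on the authors' annotation.

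The rats contributed 10488 to 43484 nuclei and 11898496 to 49272672 unique molecular identifiers (UMIs, 1 per captured transcript molecule) each. DTL nuclei made up 15750 to 782061 of these UMIs per rat. A single DTL nucleus held 442 to 5321 UMIs, with a median of 1472. The lowest number of UMIs in any retained nucleus was 632 to 961 in the lean rats and 379 to 639 in the obese rats. The shallowest retained nuclei thus differed between rats, while whether a limit on UMIs differed is not given in the sources used here. These differences in depth go along with the groups and are given again beside the results they touch.

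The DTL nuclei formed a well-bounded cluster. At the coarser level of the annotation, 1191 of them belonged to the loop of Henle type, and the other 2, both from lean rat RK5_4, were called proximal tubule. No cell barcode was shared by DTL nuclei of different rats (0 barcodes). On the deposited map of all nuclei, the 30 nearest neighbours of a DTL nucleus were themselves DTL in 89.1% of cases, ATL in 4.43%, DTL(Shroom3+) in 3.86% and fibroblasts or pericytes (Fib/Peri) in 0.813%. Most of the 30 neighbours were DTL for 93.0% of the DTL nuclei, and 83 nuclei did not reach this. Of the neighbours, 15.1% came from the same rat, so nuclei of different rats were mixed within the cluster. On this map, DTL nuclei under 1000 UMIs did not form an island of their own. Their DTL neighbours were under 1000 UMIs in 33.9% of cases, against 30.8% for DTL nuclei with more UMIs and 31.5% among all DTL nuclei. The map and the clusters come from the same data, so these values describe the annotation and do not test it. The authors also regressed out UMIs per nucleus and corrected batches before making the map. Mixing by depth or by rat therefore cannot show that these nuclei were alike.

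DTL nuclei were a smaller share of the kidney nuclei in untreated obese rats than in lean rats. In the lean rats, DTL nuclei were 281 of 16678 nuclei (1.68%, 95% Wilson interval 1.5 to 1.89) in RK1_4, 109 of 15155 (0.719%, 0.597 to 0.867) in RK3_4 and 237 of 16911 (1.40%, 1.24 to 1.59) in RK5_4. In the untreated obese rats they were 16 of 10556 nuclei (0.152%, 0.0933 to 0.246) in RK7_4, 52 of 43484 (0.120%, 0.0912 to 0.157) in RK9_4 and 64 of 13120 (0.488%, 0.382 to 0.622) in RK16_4. Every untreated obese rat lay below every lean rat, although RK16_4 and RK3_4 were not far apart. The intervals cover counting error only, and the spread between rats was wider. Lean rats had a mean share of 1.27% ± 0.496 (SD, n = 3). The mean of the untreated obese rats was 0.253% ± 0.204 (SD, n = 3).

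The rat was the replicate in every test, and log odds of all 25 clusters were fitted together with limma. The log odds of the DTL share fell by 1.75 (natural log, SE 0.499, 95% interval -2.83 to -0.672, limma adjusted p = 0.0323), which is 5.75-fold lower odds. In this comparison 12% of the 25 clusters passed the adjusted threshold, and DTL ranked 3rd among them by p. The exact permutation test of the shares, two-sided, gave p = 0.1, which is the lowest value open to groups of 3. The call depended on the rats in the fit. It was lost without RK1_4 (-1.58, adjusted p = 0.178), RK5_4 (-1.67, 0.145), RK7_4 (-1.60, 0.107), RK9_4 (-1.47, 0.0675), RK43_4 (-1.75, 0.0565), RK45_4 (-1.75, 0.0556) or RK57_4 (-1.75, 0.0574), and it was also lost with proximal tubule nuclei taken out of the total (-0.80, 0.251).

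**Figure D1:**
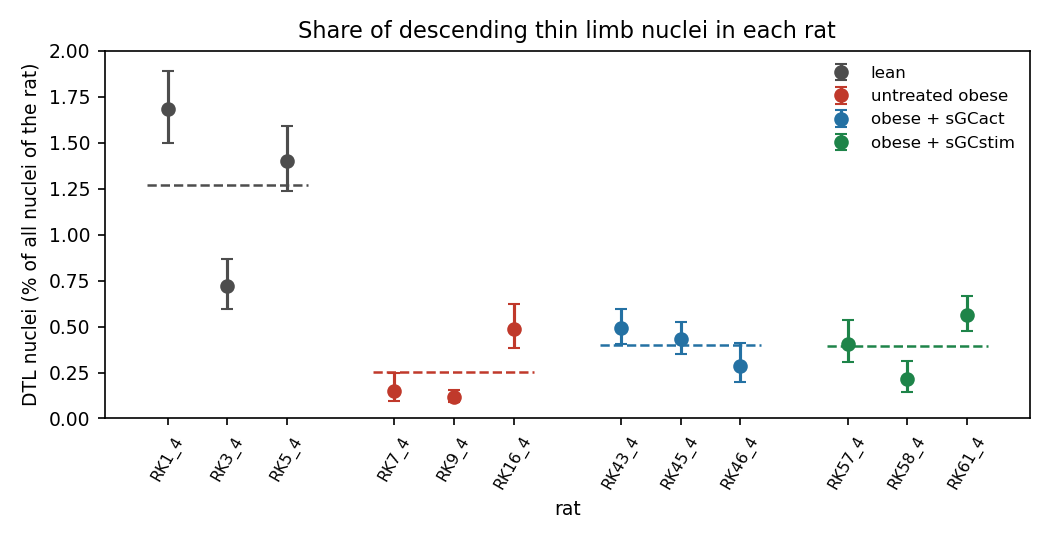
DTL nuclei as a percentage of all nuclei of each rat, by group (x axis, 3 rats each). Points are rats, bars are 95% Wilson intervals for counting error and dashed lines are group means. The lean rats lie at 0.719% or above and the 9 obese rats at 0.562% or below.

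The treated obese rats also held fewer DTL nuclei per 100 nuclei than lean rats, but these differences did not pass the adjusted threshold. With sGCact, DTL nuclei were 0.490% of the nuclei (104 DTL nuclei) in RK43_4, 0.430% (93) in RK45_4 and 0.286% (30) in RK46_4. With sGCstim they were 0.405% (50) in RK57_4, 0.212% (26) in RK58_4 and 0.562% (131) in RK61_4. All 6 treated rats lay below the lowest lean rat and between or above the untreated obese rats. Against lean, the difference in log odds was -1.12 for sGCact (limma adjusted p = 0.300) and -1.19 for sGCstim (adjusted p = 0.326), with 4% of clusters passing in each case. With the 3 obese groups pooled in 1 contrast, the difference was -1.35 (95% interval -2.23 to -0.471, adjusted p = 0.0505). There again 4% of clusters passed. The exact permutation test of 9 obese against 3 lean rats gave p = 0.00455, the smallest it can give, since the groups did not overlap in any of 27 pairs of rats.

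Among obese rats, no difference in the DTL share between treatments was detectable in all nuclei, and the intervals were wide. The sGCact rats exceeded the untreated obese rats by 0.634 in log odds (95% interval -0.444 to 1.71, limma adjusted p = 0.496), with the higher value in 7 of 9 pairs of rats. The sGCstim rats exceeded them by 0.562 (-0.516 to 1.64, adjusted p = 0.677), also in 7 of 9 pairs. Between sGCact and sGCstim the difference was 0.0722 (-1.01 to 1.15, adjusted p = 0.964). In each of these comparisons 0% of clusters passed, and 0 clusters had an unadjusted p under 0.05. With proximal tubule nuclei taken out of the total, the differences from untreated obese rats were -0.0311 for sGCact and -0.0644 for sGCstim.

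The DTL share moved beside that of the TAL. The share of the TAL, the salt-reabsorbing limb, fell in untreated obese against lean rats by 1.83 in log odds (limma adjusted p = 0.0323). Differences of the same sign in DTL(Shroom3+) (-1.37, adjusted p = 0.153) and in the ATL (-0.93, adjusted p = 0.389) did not pass. The clusters of the loop together made up 22.6% ± 5.76 (SD, n = 3) of lean kidney nuclei, 5.64% ± 4.06 in untreated obese rats, 7.35% ± 1.92 with sGCact and 10.1% ± 3.62 with sGCstim. Within the loop, DTL nuclei made up 5.46% ± 0.965 (SD, n = 3) in lean, 5.02% ± 2.30 in untreated obese, 5.82% ± 2.43 in sGCact and 3.83% ± 0.630 in sGCstim rats. Over all rats they were 1193 of 22627 loop nuclei, or 5.27%.

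Counted against the TAL, DTL nuclei showed no clear difference between groups. There were 8.46, 5.53 and 6.77 DTL nuclei per 100 TAL nuclei in the lean rats RK1_4, RK3_4 and RK5_4. The untreated obese rats RK7_4, RK9_4 and RK16_4 had 3.65, 9.30 and 7.41. The values were 7.43, 11.7 and 4.43 in the sGCact rats RK43_4, RK45_4 and RK46_4, and 3.90, 4.56 and 6.07 in the sGCstim rats RK57_4, RK58_4 and RK61_4. The groups overlapped, and the log ratio of DTL to TAL differed between untreated obese and lean rats by -0.06 (95% interval -1.0 to 0.876, limma adjusted p = 0.919). That interval still allows a change of over 2-fold in either direction. The log ratio to DTL(Shroom3+) differed by -0.39 (-1.41 to 0.627, adjusted p = 0.482) and that to the ATL by -0.82 (-1.96 to 0.322, adjusted p = 0.236).

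**Figure D2:**
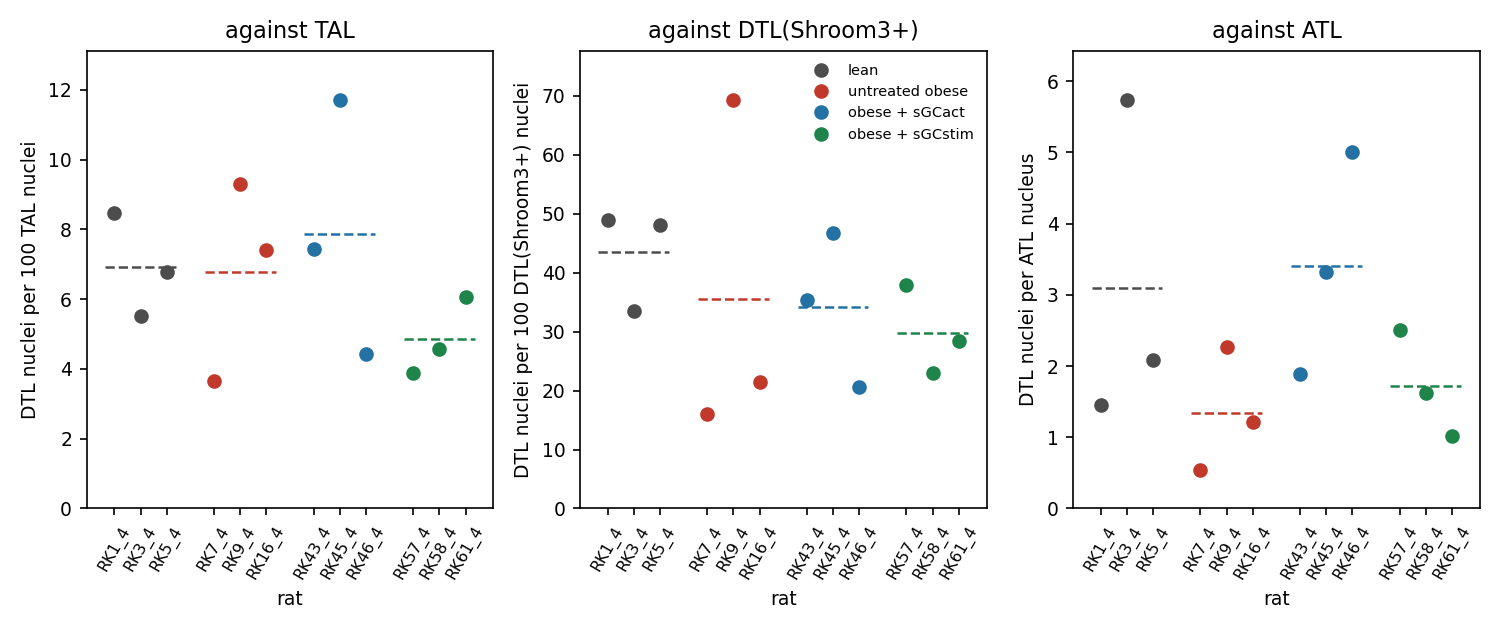
DTL nuclei per 100 TAL nuclei, per 100 DTL(Shroom3+) nuclei and per ATL nucleus in each rat (x axis, by group). Points are rats and dashed lines are group means. The groups overlap in all 3 panels, from 3.65 to 11.7 per 100 TAL nuclei over the 12 rats.

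DTL nuclei fell against some clusters of the proximal tubule and against immune cells. Of the 24 log ratios of DTL to another cluster, 6 (25%) passed in untreated obese against lean rats. DTL fell against proximal tubule cells named PCT(Spp1+) (-3.57, natural log, limma adjusted p = 0.00704), against the cluster PTinj of the proximal tubule (-2.62, adjusted p = 0.00251) and against immune cells (-2.41, adjusted p = 0.00598). The decreases against PTnov1 (-1.82, adjusted p = 0.0303) and PCT, the convoluted proximal tubule (-1.81, adjusted p = 0.0338), were smaller. The ratio of DTL to PTnov2, another proximal tubule cluster, rose by 4.53 (adjusted p = 0.00675). As the DTL share itself fell by 1.75 in log odds, this was a larger fall of PTnov2 and no rise of DTL. These ratios share the DTL count and are not independent of each other. In sGCact against untreated obese rats 0% of the ratios passed with limma (1 had an unadjusted p under 0.05, DTL to PTinj at 1.23), although 20 of 24 passed among nuclei with at least 1000 UMIs, a limit that removed nearly all DTL nuclei of the sGCact rats. In sGCstim against untreated obese rats 0% passed (0 unadjusted).

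DTL nuclei of untreated obese and sGCact rats held fewer UMIs than those of lean rats. The median number of UMIs per DTL nucleus was 2754, 1881 and 1459 in the lean rats RK1_4, RK3_4 and RK5_4. It was 703.5, 908 and 783 in the untreated obese rats RK7_4, RK9_4 and RK16_4. With sGCact it was 682, 695 and 764.5 in RK43_4, RK45_4 and RK46_4, and with sGCstim 1485.5, 774.5 and 1522 in RK57_4, RK58_4 and RK61_4. The untreated obese and sGCact rats all lay below the lean rats and below the sGCstim rats RK57_4 and RK61_4, whereas these reached the level of the lowest lean rat.

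On the log2 scale the DTL median fell in untreated obese against lean rats by 1.31 (SE 0.296, 95% interval -1.92 to -0.689, limma adjusted p = 0.00612), which is 2.47-fold lower, with DTL lower in 9 of 9 pairs. In this comparison 16.7% of the 24 clusters tested passed, and all 24 had a difference below 0, with a median of -0.45. In sGCact against lean rats, a comparison added after the data were seen, the DTL median fell by 1.46 (95% interval -2.08 to -0.844, adjusted p = 0.00089, with 12.5% of clusters passing). The ATL, with 6 to 55 nuclei per sGCact rat, fell there by as much, 1.47 (adjusted p = 0.00089). The values for DTL(Shroom3+) were -0.71 (adjusted p = 0.162) and for TAL -0.46 (adjusted p = 0.204). The difference between sGCstim and lean rats was -0.70 (-1.32 to -0.0861, adjusted p = 0.154) with 0% of clusters passing (6 had an unadjusted p under 0.05).

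Within the obese rats, the median UMIs per DTL nucleus did not pass for any pair of groups. The log2 difference from untreated obese rats was -0.15 for sGCact (95% interval -0.77 to 0.462, limma adjusted p = 0.834, 8.33% of clusters passing) and 0.60 for sGCstim (-0.01 to 1.22, adjusted p = 0.662, 0% passing, 1 unadjusted). Between sGCact and sGCstim it was -0.76 (-1.37 to -0.14, adjusted p = 0.223, 4.17% passing), with the sGCact rat lower in 9 of 9 pairs.

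Other nuclei of the same rats also differed in depth. The median UMIs of all other nuclei were 1694 to 2917 in the lean rats, 784 to 1396 in the untreated obese rats, 966.5 to 1763 in the sGCact rats and 982 to 1660 in the sGCstim rats. The DTL median was 0.861 to 0.944 times the median of the other nuclei in the lean rats but 0.434 to 0.719 times that median in the sGCact rats. It exceeded the other nuclei in RK9_4 (1.01-fold) and in RK61_4 (1.55-fold). In 6 of the 12 rats DTL was among the 3 clusters with the lowest median UMIs, and all 6 were obese. Set against the other clusters of the same rat, the log2 median of DTL differed between untreated obese and lean rats by -0.77 (95% interval -1.35 to -0.187, limma adjusted p = 0.158), with 0% of clusters passing (4 unadjusted). Without RK58_4 this comparison passed (adjusted p = 0.00225). For sGCact against lean rats the relative DTL median fell by 0.97 (adjusted p = 0.0378, 8.33% of clusters passing).

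**Figure D3:**
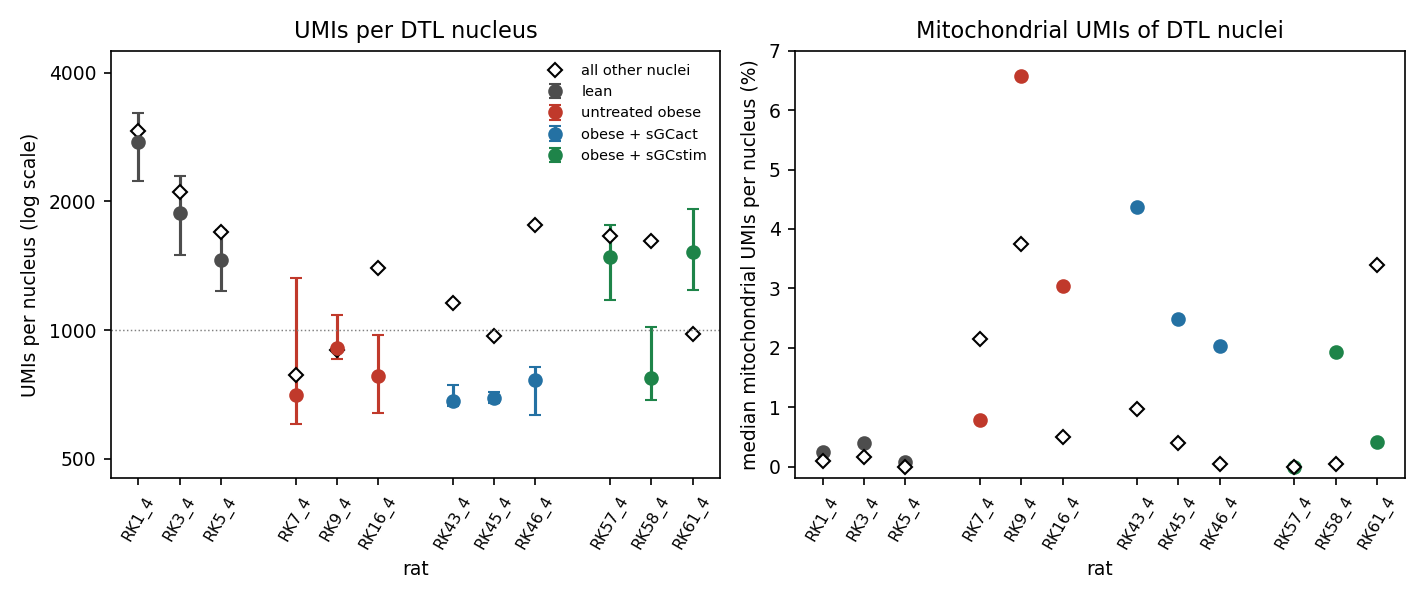
Left, UMIs per DTL nucleus in each rat on a log axis, with medians as filled points and quartiles as bars. Right, the median percentage of UMIs on mitochondrial genes in DTL nuclei. Open diamonds are the medians of all other nuclei of the rat and the dotted line marks 1000 UMIs. DTL medians are 682 to 908 UMIs in the untreated obese and sGCact rats and 1459 to 2754 in the lean rats.

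A limit of 1000 UMIs, which lies above the lowest retained nucleus of every rat, separated the groups further. This limit was chosen after the data were seen. In the lean rats, 281 of 281, 107 of 109 and 219 of 237 DTL nuclei reached 1000 UMIs. In the untreated obese rats 5 of 16 (31.2%), 16 of 52 (30.8%) and 15 of 64 (23.4%) did so. In the sGCact rats, 2 of 104 (1.92%, 95% Wilson interval 0.529 to 6.74), 0 of 93 (which allows a share of up to 3.23%, taking 3 counts as the limit that a count of 0 allows) and 1 of 30 (3.33%, 0.591 to 16.7) reached it. With sGCstim, 40 of 50 (80.0%), 7 of 26 (26.9%) and 124 of 131 (94.7%) did so. DTL nuclei of at least 1000 UMIs were thus nearly missing in all 3 sGCact rats, while the sGCstim rats were spread from the untreated obese range to the lean range. Among all other nuclei, 85.7% to 99.3% reached the limit in the lean rats. In the untreated obese rats RK7_4, RK9_4 and RK16_4, 37.8%, 27.3% and 76.0% of the other nuclei did so. The low share was therefore not particular to DTL in RK7_4 and RK9_4, and in RK9_4 DTL nuclei reached the limit more often than the others.

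The log odds that a DTL nucleus reached 1000 UMIs fell in untreated obese against lean rats (-5.09, 95% interval -7.88 to -2.30, limma adjusted p = 0.00429, 16.7% of clusters passing; -5.39, adjusted p = 0.115 when weighted by nuclei) and in sGCact against lean rats (-8.16, adjusted p = 7.5e-07, 25% passing). It fell by 5.04 in sGCact against sGCstim rats (-7.83 to -2.25, adjusted p = 0.00839, 8.33% passing). That last call was lost without RK43_4 (-5.17, adjusted p = 0.053), RK45_4 (-4.41, 0.0824) or RK61_4 (-4.17, 0.0918), and when weighted by nuclei (-6.22, 0.132). On the percentages, the exact two-sided permutation test gave p = 0.1 in each of these comparisons, the lowest value open to groups of 3. DTL and the other loop clusters had the same SE of 1.41 in these fits. The limma p-values therefore rest on a spread shared between clusters and not on that of DTL alone. Against untreated obese rats, the difference was -3.08 for sGCact (adjusted p = 0.247, 4.17% passing) and 1.97 for sGCstim (adjusted p = 0.9995, 0% passing, 1 unadjusted). Because 0 DTL nuclei of RK45_4 reached the limit and 0 of RK1_4 missed it, the sizes of these differences depend on the 0.5 nuclei added before taking logs. In untreated obese against lean rats the difference was below 0 for 22 of the 24 clusters tested, with a median of -2.16.

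The ATL also held few nuclei of at least 1000 UMIs in the sGCact rats. Of ATL nuclei, 5.45%, 10.7% and 33.3% reached 1000 UMIs in RK43_4, RK45_4 and RK46_4, against at least 86.8% in the untreated obese rats. These rats held few ATL nuclei, 55, 28 and 6 in the sGCact rats and 23 to 53 in the untreated obese rats. The ATL values rest on these. The log odds for the ATL fell by 4.46 in sGCact against untreated obese rats (limma adjusted p = 0.0447), a comparison in which DTL did not pass. They fell by 4.87 in sGCact against sGCstim rats (adjusted p = 0.00839), and the ATL and DTL were the clusters that passed there. The log2 median UMIs of the ATL also fell in sGCact against untreated obese (-1.13, adjusted p = 0.0164) and against sGCstim rats (-1.29, adjusted p = 0.0041). Of TAL nuclei, 69.4% to 90.2% reached 1000 UMIs in the sGCact rats, and of DTL(Shroom3+) nuclei 40.7% to 75.9%. Among the other nuclei of these rats, 48.7% to 83.0% did so.

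**Figure D4:**
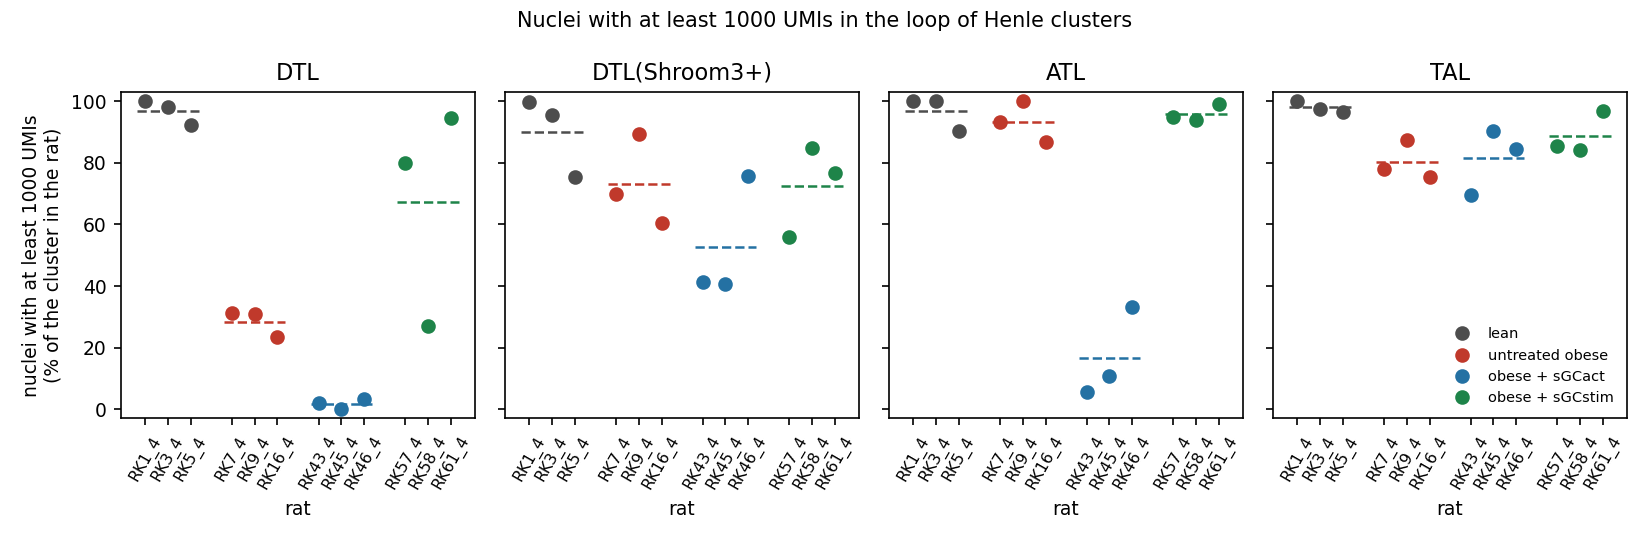
Percentage of nuclei with at least 1000 UMIs in each of the 4 clusters of the loop of Henle, per rat (x axis, by group). Points are rats and dashed lines are group means. In the DTL panel the sGCact rats lie at 3.33% or below, and the untreated obese rats between 23.4% and 31.2%, while in the TAL panel all rats lie at 69.4% or above.

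Among nuclei with at least 1000 UMIs the order of the obese groups by DTL share was another. DTL nuclei were then 1.70%, 0.782% and 1.51% of the nuclei in the lean rats RK1_4, RK3_4 and RK5_4, and 0.125%, 0.135% and 0.151% in the untreated obese rats RK7_4, RK9_4 and RK16_4. In the sGCact rats they were 2 of 12023 nuclei (0.0166%), 0 of 10467 (by the same limit of 3 counts, up to 0.0287%) and 1 of 8676 (0.0115%). In the sGCstim rats they were 0.416% in RK57_4, 0.0654% in RK58_4 and 1.07% in RK61_4. The sGCact rats lay below all others, and RK61_4 stood within the lean range.

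A share among these nuclei depends on how many DTL nuclei reached the limit, so it carries the difference in UMIs given above and is no separate readout. It is given as a description with no test. In these nuclei the log odds of the DTL share differed between untreated obese and lean rats by -2.18 (95% interval -3.54 to -0.827), between sGCact and lean rats by -4.67 (-6.03 to -3.32) and between sGCstim and lean rats by -1.39 (-2.75 to -0.036). The value for sGCact against untreated obese rats was -2.49 (-3.85 to -1.13), where the value in all nuclei was 0.634. For sGCact against sGCstim rats it was -3.28 (-4.64 to -1.92), where the value in all nuclei was 0.0722. For sGCstim against untreated obese rats it was 0.791 (-0.566 to 2.15).

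**Figure D5:**
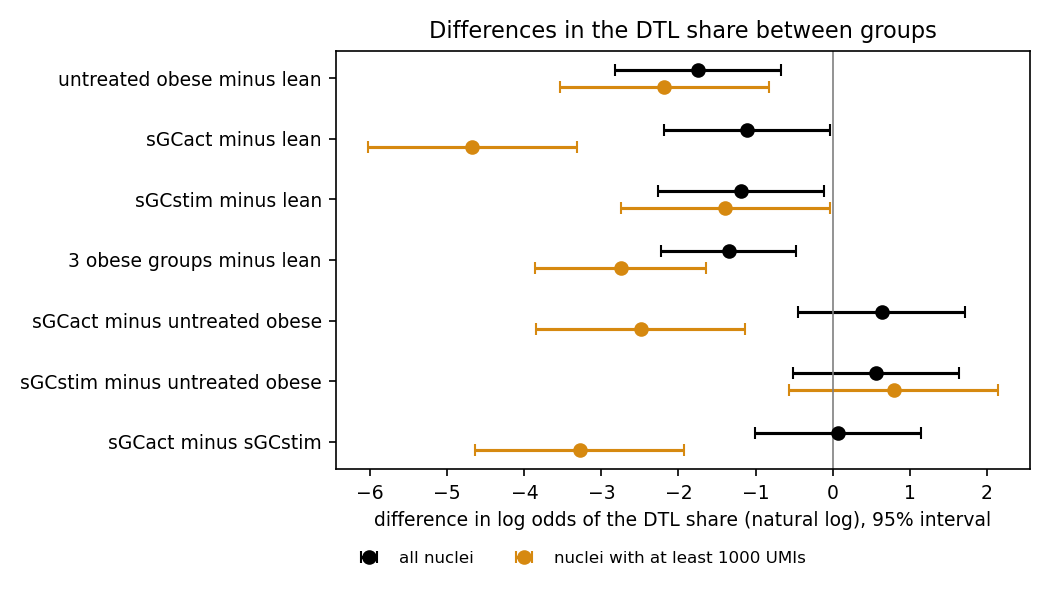
Differences in the log odds of the DTL share (x axis, natural log) between groups, with 95% intervals from the fit, in all nuclei (black) and in nuclei with at least 1000 UMIs (orange). Values left of 0 mean a smaller share in the group named first. In sGCact against untreated obese rats the difference is 0.634 in all nuclei and -2.49 in nuclei with at least 1000 UMIs.

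Mitochondrial transcripts, a common sign of damaged or poorly cleaned nuclei, went along with the low UMI counts. The median mitochondrial percentage of DTL nuclei was 0.246, 0.389 and 0.0769 in the lean rats RK1_4, RK3_4 and RK5_4, and 0.786, 6.58 and 3.05 in the untreated obese rats RK7_4, RK9_4 and RK16_4. It was 4.37, 2.48 and 2.02 in the sGCact rats RK43_4, RK45_4 and RK46_4, and 0, 1.92 and 0.415 in the sGCstim rats RK57_4, RK58_4 and RK61_4. All untreated obese and sGCact rats lay above all lean rats. The median of all other nuclei was also higher in RK7_4, RK9_4 and RK16_4 (2.14, 3.74 and 0.491) than in the lean rats (at most 0.160). In RK7_4 it lay above the DTL median. On the scale of log2(percentage + 0.1), which understates changes of low percentages, the difference between untreated obese and lean rats was 3.09 (95% interval 0.745 to 5.44) and did not pass (limma adjusted p = 0.198, 0% of clusters passing, 3 unadjusted). That between sGCact and lean rats was 3.23 (adjusted p = 0.139, 4.17% passing). The cluster that passed there was the ATL (2.96, adjusted p = 0.0282), which also passed in sGCact against untreated obese (2.87, adjusted p = 0.0353) and against sGCstim rats (4.12, adjusted p = 0.00204), where DTL did not (0.13, adjusted p = 0.916, and 2.63, adjusted p = 0.379). The ATL values rest on 6 to 55 nuclei per sGCact rat. The DTL difference between sGCstim and untreated obese rats was -2.49 (-4.84 to -0.146, adjusted p = 0.458, 0% passing, 2 unadjusted).

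More than 1% of the UMIs were mitochondrial in 99.0%, 96.8% and 73.3% of the DTL nuclei of the sGCact rats, in 43.8%, 80.8% and 84.4% of those of the untreated obese rats and in 1.27% to 25.7% of those of the lean rats. Among the other nuclei this held for 11.5% to 49.8% in the sGCact rats and for 9.69% to 29.4% in the lean rats. In the untreated obese rats RK7_4, RK9_4 and RK16_4 it held for 55.6%, 83.5% and 38.9% of the other nuclei. In RK7_4 and RK9_4 it thus held for more of the other nuclei than of the DTL nuclei. DTL nuclei above 1% had fewer UMIs than those at or below 1% in all rats but RK5_4, by widely differing amounts. The medians were 750.5 against 1466 in RK16_4, on 10 nuclei at or below 1%, and 2689 against 2763 in RK1_4. They were 694 against 696 in RK45_4, where only 3 nuclei lay at or below 1%, and RK43_4 had only 1 such nucleus. In RK5_4 the order was the other way, 1607 against 1458.5, on 3 nuclei above 1%. With nuclei above 1% left out, the DTL share differed between sGCact and untreated obese rats by -1.55 in log odds (limma adjusted p = 0.321). The part of low UMI counts and of mitochondrial transcripts in the differences of DTL share was not tested.

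The number of expressed genes per DTL nucleus followed the UMIs. Its median was 942 to 1584 in the lean rats, 527.5 to 629 in the untreated obese rats, 543.5 to 616.5 in the sGCact rats and 629 to 1054.5 in the sGCstim rats. Counts per gene were not used here, so the nuclei could not be thinned to equal depth. Among DTL nuclei with 600 to 1000 UMIs the medians were 542 to 640 genes in the sGCact rats, on 22 to 101 nuclei per rat, and 499 to 620.5 in the untreated obese rats, on 7 to 40 nuclei. At most 18 nuclei of a lean rat fell in this window, and RK1_4 had 0.

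Cell-cycle scores of DTL nuclei did not differ between groups beyond the adjusted threshold. The mean G2M score, a relative expression of genes of the G2 and M phases, was higher in untreated obese than in lean rats by 0.0127 (95% interval 0.00282 to 0.0226, limma adjusted p = 0.0554) in 9 of 9 pairs, where 25% of clusters passed. This difference passed without RK16_4 (0.0149, adjusted p = 0.042), RK57_4 (0.0127, 0.0234) or RK58_4 (0.0127, 0.0393), and it was 0.00122 among nuclei with at least 1000 UMIs (adjusted p = 0.939) and 0.00297 as a median (adjusted p = 0.791). The mean S score was higher in sGCstim than in untreated obese rats by 0.0097 (adjusted p = 0.0704, 0% passing, 5 unadjusted), and this passed without RK61_4 (0.0118, adjusted p = 0.0393). The authors' phase calls put 25% to 44.3% of the DTL nuclei of a rat in S phase, against 28.3% to 39.1% of its other nuclei. No phase held less than 23.1% of the DTL nuclei of any rat, and no cycling was read from these calls.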

How the data were processed

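Kidney nuclei of 12 male ZSF1 rats, 3 per group, were analysed from the deposited table of nuclei, which names the rat and the group of each nucleus as the labels name the groups. Which labelled replicate a rat is was not known and not used. The rats are separate animals. The authors isolated nuclei, made droplet libraries with UMIs, aligned the reads with Cell Ranger (the sources used here differ on its version) to the rat genome (rn6) with introns included, took out ambient RNA and doublets, kept nuclei with 200 to 3000 genes and at most 15% mitochondrial UMIs, corrected batches and clustered. UMIs per nucleus are deposited as counts without normalization, and genes per nucleus as whole-number counts. Mitochondrial UMIs are deposited as a percent of all UMIs in a nucleus. S and G2M values are scores by the authors with no fixed range. Phase calls, cluster names and map coordinates are deposited as other values. No filter on nuclei was added in the main results, and the UMI counts came after the authors' filters.

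For each rat, the log odds of each of 25 clusters (0.5 nuclei added to the cluster, 1 to the total), the log ratios of DTL to the other 24 clusters (0.5 added to each), and the median or mean of each value per nucleus (clusters with at least 5 nuclei in a rat) were fitted over the 4 groups with limma 3.58.1 (R 4.3.3), with 8 residual degrees of freedom and Benjamini-Hochberg adjustment over the clusters of a contrast at 0.05. Cluster medians of a rat below the 5 nuclei were left out, which left 24 clusters in most contrasts and did not touch DTL. A pseudocount of 0.1 was added to the mitochondrial percentage. Exact permutation tests were two-sided. Python 3.11.15 (numpy 2.4.6, pandas 2.3.3, scipy 1.17.1) was used for the rest. The scripts were tested on simulated data.

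DTL was described in every comparison. Other clusters were named where they belong to the loop of Henle, where their ratio to DTL passed (at most 5 per contrast, with PCT as the 6th and 1 unadjusted ratio to PTinj named after their values were seen), or where they were the most frequent map neighbours. The members and cluster lists were chosen with earlier results of these data known. Alternatives were an arcsine square root scale, leaving proximal tubule nuclei out of the total, edgeR 4.0.16 (quasi-likelihood, with the total or TMM), the compared groups alone, limits on UMIs and mitochondrial percentage, other summaries, pseudocounts and minimums, weights by nuclei and each rat left out. No per-sample column was left unmapped (0 columns). Gene counts were not analysed here.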

Additional observations from a re-analysis of the deposited data

Results flagged for a closer look

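Among the 9 obese rats, the share of DTL nuclei in nuclei with at least 1000 UMIs stood apart in the sGCstim rat RK61_4, at 1.07%, with a gap to the next rat of 0.612 of the whole range by Dixon's test. For groups of like samples, chance flags about 1 in 20 in this way. That rate does not hold here, because the obese rats came from different treatment groups. The limit of 1000 UMIs was also chosen after the data were seen. The value of RK61_4 is therefore given as a description only.

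The log odds that a DTL nucleus held at least 1000 UMIs differed between the groups given sGCact and sGCstim by -5.04 (limma adjusted p = 0.00839), with every sGCact rat below every sGCstim rat (9 of 9 pairs). On the percentages, the exact two-sided permutation test gave p = 0.1. The call was lost without RK43_4 (-5.17, adjusted p = 0.053), RK45_4 (-4.41, 0.0824) or RK61_4 (-4.17, 0.0918) and when weighted by nuclei (-6.22, 0.132). It was not particular to DTL, since the ATL differed by -4.87 (adjusted p = 0.00839), on 6 to 55 ATL nuclei per sGCact rat. The DTL share among nuclei with at least 1000 UMIs, which rests on the same nuclei and is no separate observation, differed by -3.28 in log odds, against 0.0722 in all nuclei. Doses per day differed between these groups, and the limit of 1000 UMIs was chosen after the data were seen.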

How the results depend on the processing

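The lower DTL share in untreated obese than in lean rats passed in 9 of 20 alternatives, among them the limits on UMIs and mitochondrial percentage. It was -0.80 without proximal tubule nuclei in the total (adjusted p = 0.251), -1.61 with edgeR and the total (0.0749), -1.03 with edgeR and TMM (0.0964) and -1.75 with the compared groups alone (0.174). Leaving out single rats gave -2.18 to -1.47, and 5 of 12 such fits passed. The difference of the 3 obese groups from lean passed on the arcsine scale (-0.0538), with edgeR and the total (-1.31) and without RK9_4 or RK16_4. Over rats left out it ranged from -1.61 to -1.18 (limma adjusted p 0.00641 to 0.331). It was -2.75 at 1000 UMIs, -2.41 at no more than 1% mitochondrial UMIs and -0.83 without proximal tubule nuclei in the total (limma adjusted p = 0.102). For sGCact against lean it passed with the compared groups alone (-1.12). The difference was -4.67 at 1000 UMIs and -3.67 at 1%, but these limits left few DTL nuclei in the sGCact rats. In RK43_4, RK45_4 and RK46_4 they left 2, 0 and 1 at 1000 UMIs, and 1, 3 and 8 at 1%. The values at these limits carry the differences in UMIs and mitochondrial percentage and are no separate support for a smaller share. The sign turned for sGCact against untreated obese at 1000 UMIs (-2.49), at 1% (-1.55) and without proximal tubule nuclei (-0.0311), for sGCstim against untreated obese without proximal tubule nuclei (-0.0644), and for sGCact against sGCstim at 1000 UMIs (-3.28), at 1% (-2.23) and over rats left out (-0.195 to 0.287).

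The lower median UMIs of DTL nuclei in untreated obese than in lean rats passed in 15 of 16 alternatives (not weighted by nuclei, -1.31, adjusted p = 0.0668), with -1.52 to -1.06 over rats left out. The fall in sGCact against lean passed in 16 of 16. Relative to other clusters the difference was -0.81 to -0.70 over rats left out and -0.45 with the mean over nuclei. Weighted by nuclei, the mitochondrial difference between untreated obese and lean passed (3.67, adjusted p = 0.0288). For sGCact against untreated obese its sign turned with the mean (-0.29), with at least 20 nuclei (-0.66), weighted by nuclei (-0.17) and over rats left out (-0.66 to 0.80). The S score difference between untreated obese and lean passed as a median (-0.0207, adjusted p = 0.0229) and turned at 1000 UMIs (0.00229). That of sGCstim from untreated obese was 0.00689 to 0.0118 over rats left out. The G2M difference between untreated obese and lean was 0.0113 to 0.0149 over rats left out, but 0.00122 at 1000 UMIs and 0.00297 as a median, and that of sGCstim from untreated obese turned at 1000 UMIs (0.00437) and over rats left out (-0.00863 to 0.00037). The log odds of reaching 1000 UMIs no longer passed when weighted by nuclei for untreated obese against lean (-5.39, adjusted p = 0.115) and sGCact against sGCstim (-6.22, 0.132, range over rats left out -6.05 to -4.17). The number of DTL ratios passing in sGCact against untreated obese rose from 0 to 20 of 24 at 1000 UMIs, and over rats left out it was 0 to 1 there and in sGCstim against untreated obese. The causes were not tested.

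With 16 to 281 DTL nuclei per rat and 3 rats per group, the 95% intervals of the share differences were wide (for sGCact against sGCstim -1.01 to 1.15 in log odds), and small differences were not detectable. No paired analysis was possible because the names of the rats carry no replicate number.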
